A study of Mus musculus with 8 samples.

Results

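Small leucine-rich proteoglycans are secreted proteins built from leucine-rich repeats, most of which carry sugar chains and bind collagen fibrils. The genes described here are Dcn (decorin), Bgn (biglycan), Aspn (asporin), Lum (lumican), Fmod (fibromodulin), Prelp, Ogn (osteoglycin) and Podn (podocan). They were taken by name and make up 8 of the 22878 gene rows that the expression files share, with 1 row for each gene. The family was chosen by the FPKM of Dcn, which was lower in the induced pluripotent stem cell (iPSC) lines than in the embryonic stem cell (ESC) line, so the values of Dcn are given as a description without a test. The question was whether the other 7 genes of the family shared the fall of Dcn.

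RNA-seq had been carried out on 5 mouse cell lines. R1 is an ESC line. The other lines (16-6, 32, S8 and T2) are secondary iPSC lines, derived from somatic cells of all-iPSC mice at 8 weeks of age, which carried Klf4, c-Myc, Oct4 and Sox2 under the control of doxycycline. Line 16-6 came from hematopoietic cells, 32 from adipocyte progenitors, S8 from epidermal cells and T2 from the stomach lining, and doxycycline had been withdrawn before colonies were picked. R1, 16-6 and 32 had 2 libraries each and S8 and T2 had 1 each, so each origin was represented by 1 line. With 1 library each, a difference of the line S8 or T2 and one of its single library cannot be told apart. The labels give the tissue of every sample as embryo, whereas the methods of the study describe RNA from cell pellets. All lines had been grown on mitomycin C-treated mouse embryonic fibroblasts of ICR mice, and no source used here says whether these feeder cells were removed before RNA was isolated.

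Decorin and biglycan, with asporin, form one branch of the family, and lumican, fibromodulin and Prelp form another. Decorin takes its name from the way it decorates collagen fibrils, limits their width and binds growth factors of the TGF-beta family. Fibroblasts of connective tissue are the best known source of decorin and lumican.

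Expression is given as FPKM, a fragment count divided by transcript length and by library size, which corrects for transcript length and so allows genes to be compared. The deposited values are far larger than usual FPKM and were divided by 1 constant, 12725.7, which leaves ratios unchanged. The upper quartile then lay between 16.293 and 17.615 in the 8 libraries. The confidence limits in the files imply between 15.48 and 16.68 fragments for each library, in units of 1000000. The paper, however, lists more reads for S8 and T2 than for the other lines, with a smaller percentage of them uniquely mapped. The 4 most abundant pluripotency markers of a fixed list, Dppa5a, Pou5f1, Tdgf1 and Utf1, had line means from 365.2 (Utf1 in 16-6) to 1935 (Dppa5a in 32). RNA of these 4 was thus abundant in all 5 lines. Others of the 10 listed varied between lines. Zfp42 was at 540.6 and 544 in R1 and 92.9 in T2, and Klf4 at 126 and 130.2 in R1 and 53.3 in T2. Nanog was at 177.2 and 174.2 in R1, 80.8 in S8, and 321.3 and 326.8 in 32.

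In the mm9 build the members lay in 5 places, and 3 of these were clusters of the same family in the GENCODE annotation. Dcn occupied chr10:96942134-96980796 on the plus strand with 2 start sites in the files, and Lum (chr10:97028135-97035337, plus strand) began 47.4 kb beyond it, followed by Kera (keratocan) and Epyc (epiphycan). Aspn (chr13:49639812-49662931) and Ogn (chr13:49703440-49719869) stood on the plus strand among Ecm2 and Omd. All 4 lay within the span of Cenpp on the other strand, and none of the exons of Aspn and Ogn overlapped a Cenpp exon. Prelp (chr1:135806882-135817978, minus strand) and Fmod (chr1:135934092-135944854, plus strand) were 115.8 kb apart, with Optc beyond Prelp. Bgn (chrX:70728974-70741275, plus strand) and Podn (chr4:107687398-107704695, minus strand) had no other member on their chromosomes.

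Promoter sequences were in the RefSeq table (build GRCm38.p6) for 6 of the 8 genes. Dcn and Lum had no entry. The 250 bases before the start site are shown for 3 genes that were higher in 16-6 than in R1 (Bgn, Fmod and Aspn) and for Prelp, which was lower in the other 3 iPSC lines. Fmod was high in 16-6 only and was in the fit only through that line, as described below. Capitals mark the letters of a GC box (GGGCGG) or a TATA box (TATAAA) on either strand, and each sequence ends 1 base before the start.
Bgn, chrX:73483351-73483600, plus strand: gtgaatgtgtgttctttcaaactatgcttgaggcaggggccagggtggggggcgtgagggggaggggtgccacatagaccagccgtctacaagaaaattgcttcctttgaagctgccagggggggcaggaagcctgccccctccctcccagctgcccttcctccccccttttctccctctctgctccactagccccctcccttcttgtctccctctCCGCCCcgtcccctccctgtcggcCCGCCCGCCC
Fmod, chr1:134037004-134037253, plus strand: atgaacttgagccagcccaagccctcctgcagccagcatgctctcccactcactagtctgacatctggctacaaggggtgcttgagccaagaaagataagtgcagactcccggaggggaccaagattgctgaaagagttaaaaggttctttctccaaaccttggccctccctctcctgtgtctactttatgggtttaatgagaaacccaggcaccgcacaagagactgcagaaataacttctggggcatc
Aspn, chr13:49544193-49544442, plus strand: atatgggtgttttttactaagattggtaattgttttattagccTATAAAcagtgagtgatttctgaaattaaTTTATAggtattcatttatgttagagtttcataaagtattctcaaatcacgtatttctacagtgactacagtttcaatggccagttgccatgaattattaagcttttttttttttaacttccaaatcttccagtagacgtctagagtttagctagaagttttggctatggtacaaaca
Prelp, chr1:133921402-133921651, minus strand: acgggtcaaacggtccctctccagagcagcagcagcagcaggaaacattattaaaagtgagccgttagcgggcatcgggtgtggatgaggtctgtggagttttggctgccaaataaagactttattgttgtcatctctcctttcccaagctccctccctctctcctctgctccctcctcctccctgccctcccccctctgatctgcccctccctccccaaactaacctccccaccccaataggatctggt
The Bgn sequence held 3 GC boxes, the last 2 of which overlap, and had a GC content of 64.4%. The Aspn sequence held 2 TATA boxes, neither within 100 bases of the start, and had a GC content of 30%. The Fmod and Prelp sequences held neither motif. Among all 32851 promoters of the table the same window held a GC box in 32.7%, a TATA box in 12.4%, an AP-1 site (TGANTCA) in 6.75% and a SMAD box (CAGACA) in 17.1%. None of the windows of the 6 genes held an AP-1 site or a SMAD box. A match of letters is a description of the sequence and not a measured binding site, and Bgn, Fmod and Aspn shared none of the 4 motifs.

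Dcn and Bgn were the most abundant members in R1, at nearly equal levels. Dcn had an FPKM of 216.5 (confidence limits 210.3 to 222.8) and 204 (198.2 to 209.7) in the R1 libraries, 32.91 and 33.28 in 16-6, 11.08 in S8, 11.02 in T2, and 0.605 and 0.89 in 32. Each iPSC library lay below both R1 libraries, and the order was R1, 16-6, S8 and T2, then 32. S8 and T2 did not differ beyond their confidence limits, whereas the other neighbours in this order did. The R1 mean was 6.35 times that of 16-6, 19 times that of S8, 19.1 times that of T2 and 281 times that of 32, where 13.1 and 19.1 fragments stood behind the values. On the log2(FPKM + 1) scale, on which low genes show less than their true fold, the differences from R1 were -2.63 in 16-6, -4.13 in S8, -4.13 in T2 and -6.92 in 32. Because these are bulk libraries, fewer cells that express a gene and less RNA per cell cannot be told apart.

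**Figure D1:**
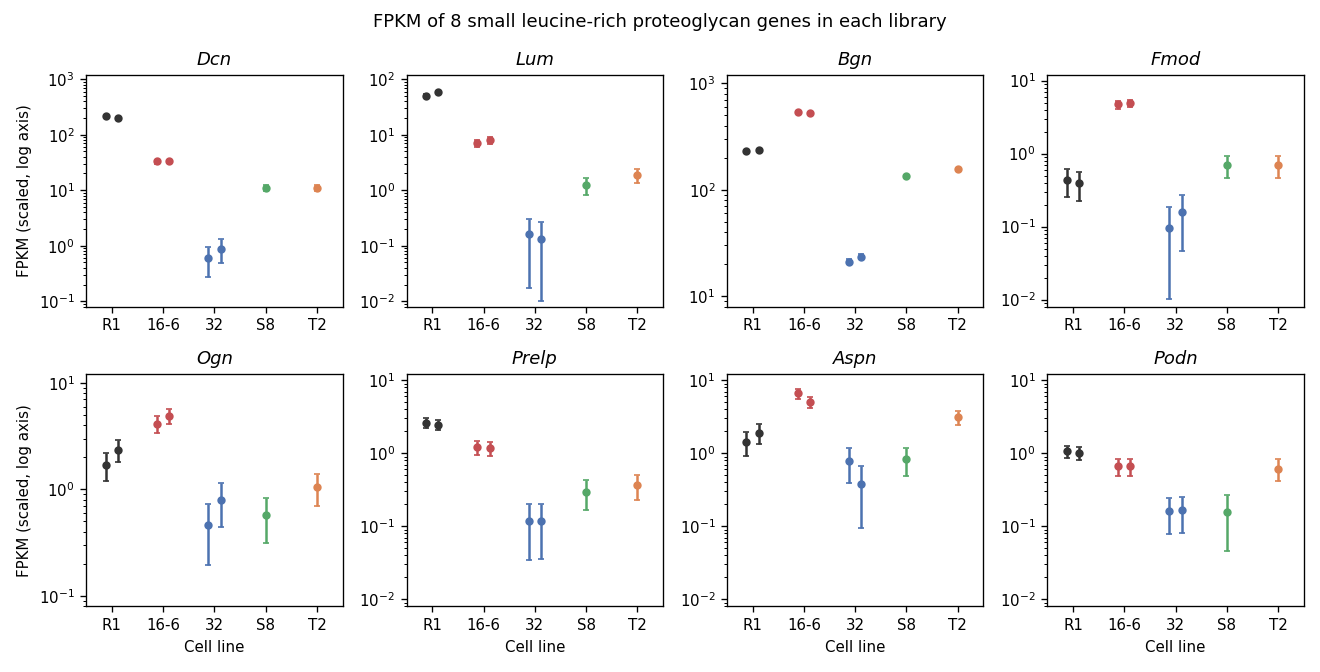
FPKM of the 8 genes in each library on log axes, 1 panel for each gene. Points are libraries and bars are the confidence limits of the files, with limits under 0.01 drawn at 0.01. Dcn, Lum, Prelp and Podn are highest in R1, while Bgn, Fmod, Ogn and Aspn are highest in 16-6, and 32 is lowest or close to lowest in every panel.

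Lum, which helps to set the spacing of collagen fibrils and neighbours Dcn on the chromosome, followed Dcn in every line. Its FPKM was 50.58 and 59.25 in R1, 7.08 and 7.91 in 16-6, 1.87 in T2, 1.24 in S8, and 0.162 and 0.132 in 32. No iPSC library overlapped R1, and among neighbours in this order only T2 and S8 had confidence limits that overlapped. The R1 mean was 7.33 times that of 16-6 and 374 times that of 32, where 5 and 4 fragments were behind the values. In the limma fit across 13693 genes Lum passed the threshold (adjusted p below 0.05 and at least a 2-fold difference in FPKM + 1) as lower in all 4 lines. The log2 differences from R1 were -2.72 in 16-6 (standard error 0.10, adjusted p = 0.000112), -5.6 in 32 (0.10, 1.12e-05), -4.64 in S8 (0.12, 4.92e-05) and -4.28 in T2 (0.12, 8.32e-05), all by limma. S8 and T2 had no replicates, and their error was taken from the replicates of the other lines.

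The neighbours of Lum were near or at 0. Epyc, a cartilage member of the family, was listed at 1.29 and 1.22 in R1 and at 0 in all 6 iPSC libraries, and it was named after its values were seen. Kera, best known from the cornea, did not exceed 0.0311 in any library.

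Bgn, the closest relative of decorin, did not follow it. Its FPKM was 231.8 and 235.7 in R1, 539.5 and 527.2 in 16-6, 156.3 in T2, 133.8 in S8, and 21.17 and 23.59 in 32. All neighbours in the order 16-6, R1, T2, S8 and 32 lay outside each other's confidence limits. Bgn rose in 16-6, where the mean was 228% of that of R1 (log2 difference 1.19, standard error 0.06, limma adjusted p = 0.000193). It fell in 32, to 9.58% of R1 (log2 difference -3.33, standard error 0.06, limma adjusted p = 1.12e-05). The differences of -0.80 in S8 and -0.58 in T2 had limma adjusted p-values of 0.000524 and 0.00218 but were below the 2-fold minimum. With quantile normalization the S8 difference was -1.09 and passed.

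The other members were at FPKM of at most 6.61 in every library. Fmod, which binds collagen at the same region as lumican, had an FPKM of 0.434 and 0.394 in R1, 4.73 and 4.88 in 16-6, 0.701 in S8, 0.686 in T2, and 0.0966 and 0.159 in 32. It was high in 16-6 only, at 11.6 times the R1 mean, and the libraries of 16-6 did not overlap any other. Fmod entered the fit only through these libraries, since it was below an FPKM of 1 in all others, so its difference from R1 in 16-6 (log2 difference 2.04, standard error 0.07) is given as a description. The differences were -0.33 in 32, 0.27 in S8 and 0.25 in T2. Aspn, which shares its sequence branch with decorin but lacks the usual chain attachment site, had 1.44 and 1.92 in R1, 6.61 and 5.05 in 16-6, 3.13 in T2, 0.831 in S8, and 0.786 and 0.383 in 32. Aspn was also highest in 16-6, followed by T2. It rose in 16-6 (log2 difference 1.35, standard error 0.19, limma adjusted p = 0.00324), and its differences of -0.76 in 32, -0.54 in S8 and 0.63 in T2 did not pass.

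Ogn, which was first described in bone and shares the Aspn cluster, was also highest in 16-6. Its FPKM was 1.69 and 2.36 in R1, 4.13 and 4.90 in 16-6, 1.05 in T2, 0.569 in S8, and 0.463 and 0.796 in 32. The libraries of 32 and the library of S8 overlapped, while those of R1 and 16-6 did not. The log2 difference of 0.87 in 16-6 stayed under the 2-fold minimum (limma adjusted p = 0.00876), as did -0.89 in 32, -0.94 in S8 and -0.56 in T2. Single libraries decided these calls. Without R1 replicate 2 the 16-6 difference was 1.03 and passed. Without R1 replicate 1 the differences were -1.05 in 32 and -1.10 in S8, and without 32 replicate 2 that of 32 was -1.04, and all 3 passed. In the same cluster Omd, which had been fixed as a family gene outside the members, had a mean of 0.892 in R1, 0.468 in 16-6 and 0.166 in 32 and stayed below the filter on low values.

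Prelp, a basement membrane and cartilage member, was the only one beside Lum that passed as lower in more than 1 line. Its FPKM was 2.62 and 2.47 in R1, 1.21 and 1.18 in 16-6, 0.366 in T2, 0.297 in S8, and 0.117 and 0.120 in 32. All iPSC libraries lay below R1, in the order of lines seen for Lum. Prelp fell in 32 (log2 difference -1.66, limma adjusted p = 8.22e-05), S8 (-1.45, 0.00018) and T2 (-1.38, 0.000399), each with a standard error of 0.07 to 0.09, while -0.69 in 16-6 did not reach the 2-fold minimum. Podn, podocan, was close to the detection filter, at 1.06 and 1.01 in R1, 0.659 and 0.666 in 16-6, 0.617 in T2, 0.155 in S8, and 0.160 and 0.167 in 32. Only the R1 libraries took it over the filter of an FPKM of 1, and its differences, from -0.29 in 16-6 to -0.82 in S8, did not pass.

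**Figure D2:**
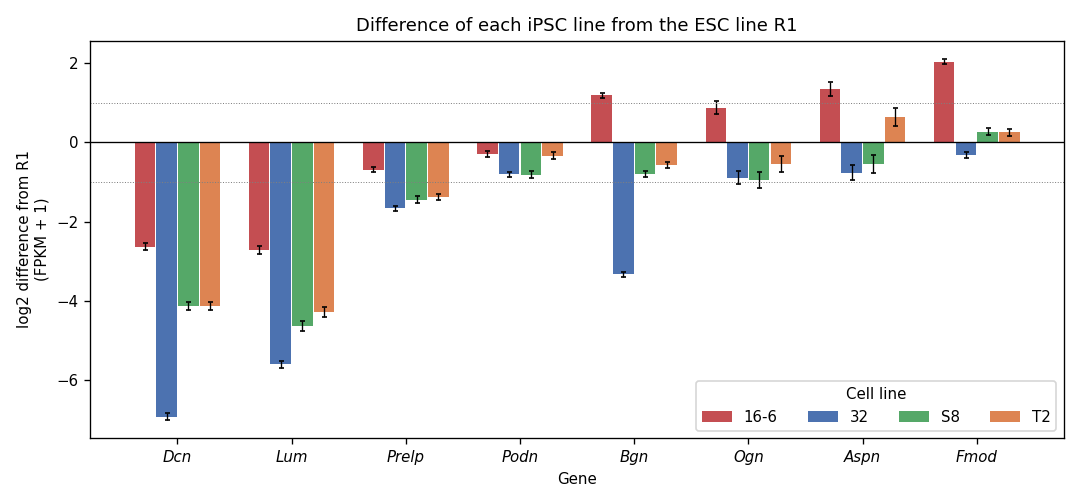
Difference of each iPSC line from R1 in log2(FPKM + 1) for the 8 genes, with bars for the standard error of the limma fit and dotted lines at the 2-fold minimum. Dcn, Lum, Prelp and Podn lie below 0 in all 4 lines, whereas Bgn, Ogn, Aspn and Fmod lie above 0 in 16-6 and below 0 in 32. Dcn, which chose the family, is shown as a description without a test. Fmod was in the fit only through 16-6 and Podn only through R1.

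All 8 members passed the filter on low values. Of the 7 members other than Dcn, 1 (Lum) was lower and 3 (Bgn, Fmod and Aspn) were higher in 16-6 than in R1, with Fmod in the fit only through 16-6. Among all genes tested 3.53% were lower and 3.58% higher in this comparison. In all genes, 1.54% were higher in 32, 6.93% in S8 and 3.95% in T2, and the 7 members gave no call in that direction in these lines. In 32, 3 of the 7 (Lum, Bgn and Prelp) were lower, against 8.23% of all genes, and the other 4 differences were also below 0. In S8 and in T2, 2 of the 7 (Lum and Prelp) were lower, against 9.74% and 6.54% of all genes. The median log2 difference of the 7 was 0.87 in 16-6, -0.89 in 32, -0.82 in S8 and -0.56 in T2, beside medians of all genes between -0.03 and -0.02. The 4 comparisons share the R1 libraries. In the mean of the 4 iPSC lines 2 of the 7 (Lum and Prelp) were lower than in R1, against 4.56% of all genes lower and 1.85% higher. The fold minimum on FPKM + 1 leaves little room for low genes, and with a pseudocount of 0.1 in place of 1 all 7 members were lower in 32, 4 in S8, and 2 were lower and 4 higher in 16-6. Of the 13693 genes tested, 1896 were then lower in 32, 1972 in S8, and 943 lower and 747 higher in 16-6. Podn, in the fit only through R1, was among the members lower in 32 and S8 with this pseudocount, so those counts depend in part on the filter. All genes with a call in 32 numbered 1127 lower and 211 higher, and with quantile normalization 758 lower and 389 higher.

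The iPSC lines 16-6 and 32, both of mesodermal origin, marked the ends of the family's range. Of the 7 members, 5 (Bgn, Lum, Fmod, Aspn and Ogn) were lower in 32 than in 16-6, against 9.22% of all genes, and Fmod was in the fit only through 16-6. Bgn differed most, by -4.52 (standard error 0.06, limma adjusted p = 2.38e-06), followed by Lum with -2.89, Fmod with -2.36, Aspn with -2.11 and Ogn with -1.76. Prelp (-0.97) and Podn (-0.51) did not reach the 2-fold minimum. Line 32, which came from adipocyte progenitors, cells of a stromal tissue, had the lowest mean FPKM of Dcn, Lum, Bgn, Fmod, Prelp and Aspn among the 5 lines. For Dcn, Lum and Bgn its confidence limits lay apart from those of the next line. They overlapped those of R1 for Fmod and those of S8 for Prelp and Aspn.

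Bgn held about the same share of the family's RNA in all iPSC lines and a smaller one in R1. It held 45.8% and 46.5% of the summed FPKM of the 8 genes in R1, 90.4% and 90.1% in 16-6, 89.9% in each 32 library, 90.0% in S8 and 89.3% in T2. Dcn held 42.8% and 40.2% in R1 and between 2.57% and 7.45% in the 6 iPSC libraries. Because Dcn chose the family by its fall and is part of the summed FPKM, the smaller Bgn share in R1 partly restates that choice. Lum held 9.99% and 11.7% in R1 and at most 1.35% elsewhere. The sum itself was 506.1 and 507.1 in R1, 596.8 and 585.1 in 16-6, 148.7 in S8, 175.1 in T2, and 23.56 and 26.24 in 32. The sum thus varied widely between iPSC lines in which the share of Bgn did not. Bgn exceeded Dcn by 1.07 and 1.16 times in R1, and by 12.1 to 35 times in the iPSC libraries. This ratio contains Dcn as well and is given as a description. Dcn in turn exceeded Lum by 3.44 to 8.93 times in every library.

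**Figure D3:**
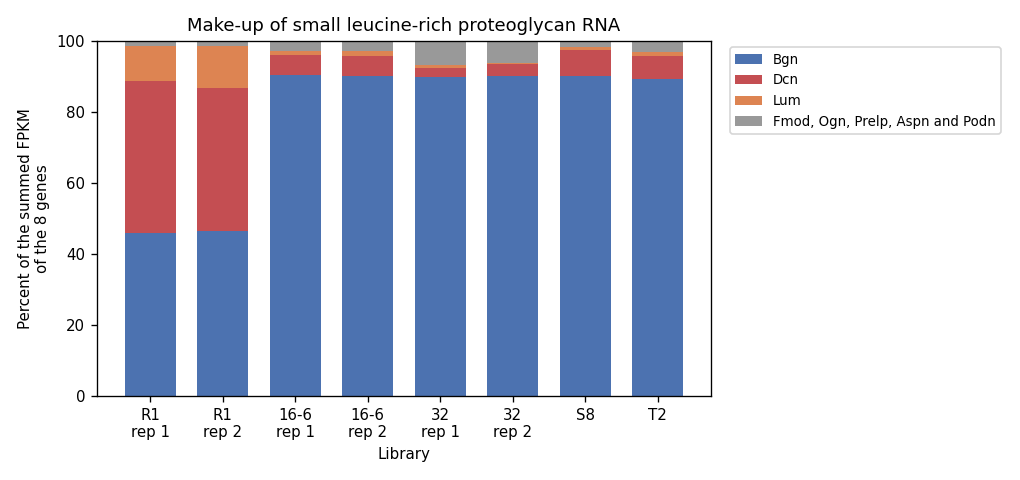
Share of each gene in the summed FPKM of the 8 genes, in percent, with 1 stacked bar for each library and the 5 low members as one block. Bgn takes about 90% in all 6 iPSC libraries and 45.8% and 46.5% in R1, where Dcn takes 42.8% and 40.2%. Dcn, whose fall chose the family, is part of the sum.

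Since feeder fibroblasts were present in culture, fibroblast markers were set beside the members. The 15 markers fixed for this purpose (among them Vim, S100a4, Thy1 and Prrx1) were all detected in every library. Their summed FPKM was 1110 and 1237 in R1, 2371 and 2394 in 16-6, 716.3 in S8, 668.1 in T2, and 271.7 and 274.6 in 32. Against R1, 7 of the 15 were higher in 16-6, 14 were lower in 32, and 7 were lower in S8 and in T2. The marker sum, in which Vim and S100a4 weigh most, was therefore highest in 16-6 and lowest in 32, as were Bgn and Fmod, but Dcn and Lum were highest in R1. Not every marker followed the sum, as Mmp2 and Pdgfra (the latter at 9.18 and 9.92 in R1, 8.82 and 9.22 in 16-6) had their highest means in R1. Their part in the differences of the members was not tested.

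Set against the marker sum of the same library, Bgn amounted to 20.9% and 19.1% in R1, 22.8% and 22% in 16-6, 18.7% in S8, 23.4% in T2, and 7.79% and 8.59% in 32. Dcn amounted to 19.5% and 16.5% in R1, but to 1.39% in each 16-6 library, 1.55% in S8, 1.65% in T2, and 0.223% and 0.324% in 32. The ratio of Bgn to the marker sum thus differed little outside 32, while that of Dcn was lower in each iPSC library than in R1. Dcn chose the family by its fall, so its lower ratio partly restates that choice. In every line the ratios depend mostly on Vim, with a mean of 688.5 in a mean marker sum of 1174 in R1 and 213.6 in 273.1 in 32. In S8 and T2 Bgn was at 0.572 and 0.669 times its R1 mean. Markers were at 0.701 and 0.611 for Vim, 0.498 and 0.391 for S100a4, 0.836 and 0.886 for Thy1, and 0.122 and 0.189 for Prrx1. Bgn in 32 was at 0.0958 times its R1 mean, beside 0.31 for Vim, 0.169 for S100a4, 0.115 for Thy1 and 0.0466 for Prrx1. Lum showed the pattern of Dcn, with 4.56% and 4.79% in R1 and 0.0479% to 0.33% elsewhere. Fmod amounted to 0.0391% and 0.0318% in R1, 0.2% and 0.204% in 16-6, and 0.0356% to 0.103% in the other libraries.

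**Figure D4:**
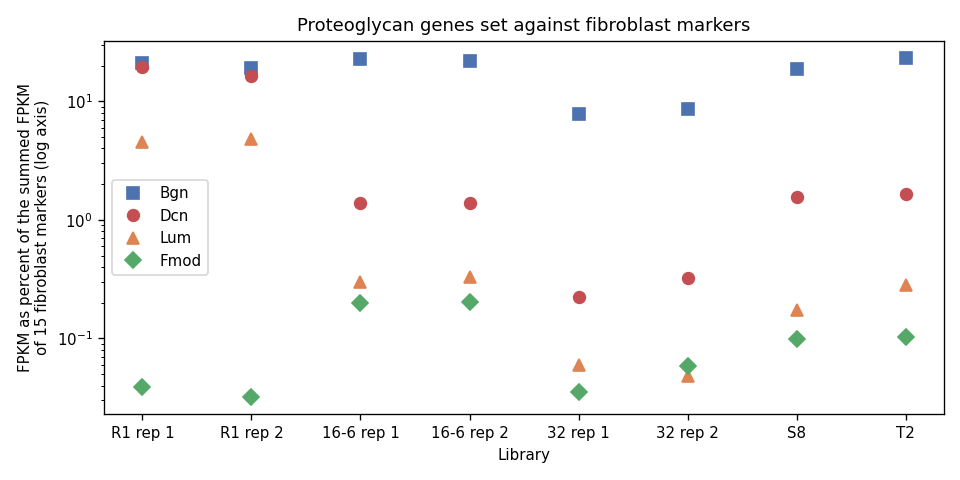
FPKM of Bgn, Dcn, Lum and Fmod as a percent of the summed FPKM of 15 fibroblast markers in the same library, on a log axis, with 1 point for each library. Bgn lies between 18.7% and 23.4% outside 32, while Dcn lies at 19.5% and 16.5% in R1 and at or below 1.65% in the iPSC libraries. Dcn chose the family by its fall, and Vim makes up most of the marker sum.

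Markers of other cell types that can accompany fibroblasts also moved. The summed FPKM of 8 smooth muscle and pericyte markers was 130.1 to 134.3 in R1 and 1526 in each 16-6 library, and 5 of the 7 tested were higher there, among them Acta2 (67.1 in R1 and 967 in 16-6) and Tagln (47.1 and 486). It was 191.6 to 200.1 in 32, 268.4 in S8 and 365.2 in T2. The sum of 8 macrophage and blood markers was 33.4 to 33.7 in R1 and between 11.2 and 15.1 in the iPSC libraries. Of the 4 that passed the filter on low values, Cd14, Emr1 and Itgam did so only through R1 and are described by values alone. Their means were 7.97, 3.34 and 2.02 in R1 and lower in each iPSC line, the direction of Dcn and Lum. No iPSC line mean exceeded 0.729 for Cd14, 0.117 for Emr1 or 0.425 for Itgam. The other, Cd68, had no call in any line. The part of these markers in the differences of the members was not tested. Of 8 chondrocyte and tendon markers, 6 were tested, and 1 was higher in 16-6 and 1 lower in 32, S8 and T2, with sums of 9.1 to 17.1 in all libraries.

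The genes closest to Dcn over the 4 lines were searched among 7569 genes with a mean FPKM of at least 10 in R1. Likeness was measured by the largest gap, over 16-6, 32, S8 and T2, between a gene's difference from R1 in log2(mean FPKM + 1) and that of Dcn. The closest was Mmp3, a matrix metalloproteinase, with a gap of 0.87 and FPKM of 216 in R1, 63 in 16-6, 10.1 in S8, 9.51 in T2 and 0.481 in 32. The chemokine Cxcl1 came next with 1.27, and Lum followed with 1.31 at rank 3. The macrophage lysozyme gene Lyz2 (1.51), the chemokine Cxcl5 (1.99) and the growth factor gene Ereg (1.99) followed. Bgn came 86th, with a gap of 3.82 that arose in 16-6. The order depended on the added 1. On plain log2 ratios of FPKM, tried after seeing the data, Cxcl5 (0.88), Mmp3 (0.89), Kcne4 (0.93), Lyz2 (0.97) and Agtr2 (1.09) came first, Lum was at rank 6 (1.22) and Cxcl1 at rank 7 (1.59), and Bgn was at rank 76 with its largest gap, 4.75, in 32. These ranks describe 5 lines and carry no test.

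Related genes outside the members were taken from lists. Of 11 further genes of the leucine-rich family only 3 passed the filter on low values. Tsku, tsukushi, was higher in 16-6 (19.4 against 8.59 in R1, log2 difference 1.09), Epyc had passed that filter only through R1 and is described above by its values alone, and Chadl did not pass in any line. Of 20 tested enzymes for chondroitin and dermatan sulfate, the chains of decorin and biglycan, 4 were higher in 16-6 (Chpf, Chpf2, Chst12 and Chst15), 3 lower in 32, 2 lower in S8 and 1 higher in T2, with median differences between -0.13 and 0.68. Dse, the epimerase that makes dermatan sulfate, had line means of 19.9 in R1, 27.5 in 16-6, 22.3 in 32, 24.6 in S8 and 27.9 in T2. Of 6 tested enzymes for keratan sulfate, the chains of lumican and fibromodulin, 1 was higher in 16-6 and lower in 32 (Chst2, 2.64 in R1, 8.02 in 16-6 and 0.641 in 32) and another, B4galt4, was higher in T2. The 4 line medians lay between -0.34 and 0.36.

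These proteins bind collagens. Of 12 tested fibrillar collagens and fibril partners, 5 were higher in 16-6, 10 lower in 32, 7 lower in S8 and 5 lower in T2. Col1a1 had line means of 177 in R1, 583 in 16-6, 28.4 in 32, 167 in S8 and 243 in T2, and Col1a2 had 163, 427, 13.6, 84.2 and 132 in the same order. Both rose in 16-6 (log2 differences 1.71 and 1.39) and fell in 32 (-2.60 and -3.48). Col3a1 and Col6a1 fell in 32, S8 and T2 but had differences of -0.20 and -0.08 in 16-6. Of the 7 tested genes for collagen and proteoglycan processing, 2 were higher in 16-6 and 2 lower in 32. Bmp1, the proteinase that trims the propeptides of collagens and of biglycan, fell in 32 (22.3 in R1 and 3.87 in 32, log2 difference -2.26) and had a difference of 0.98 in 16-6.

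Among 10 TGF-beta ligands, receptors and binding proteins, 3 were higher in 16-6, 6 lower in 32, 4 lower in S8 and 2 lower in T2. Ltbp1, which holds latent TGF-beta in the matrix, was at 17.8 in R1, 61.4 in 16-6 and 5.06 in 32. Among 6 cell surface receptors of decorin and biglycan, the differences of Lrp1, Igf1r, Egfr and Met in 16-6 ranged from -0.22 to 0.58 without a call, while 4 were lower in 32, 4 in S8 and 3 in T2. Egfr, a receptor that decorin binds, had line means of 10.6 in R1, 9.76 in 16-6, 1.29 in 32, 1.73 in S8 and 3.9 in T2. Of 14 tested proteoglycans outside the family, 2 were lower in 16-6, 3 in 32, 7 in S8 and 3 in T2. Among all genes tested, 3.53% were lower in 16-6, 8.23% in 32, 9.74% in S8 and 6.54% in T2. Srgn, at 2.84 and 2.27 in R1 and at most 0.59 in the iPSC libraries, was in the fit only through R1. The counts therefore depend in part on the filter.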

How the data were processed

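RNA-seq libraries of 5 mouse cell lines were analysed (8 libraries). The authors aligned reads with TopHat2 2.0.4 against mm9 and its UCSC genes and computed gene-level expression with Cufflinks. The version is 2.0.0 in the submitters' processing notes and differs by a patch release in the paper. The deposited values are FPKM with confidence limits, 1 file for each library, and the paper calls the unit RPKM. Rows (22878) were matched between files by name, position and start site. Values were divided by 12725.7, which sets the median library total to 1000000. Fragments behind a value were taken from its confidence limits: FPKM was doubled, divided by its distance to the upper limit, and squared, on the assumption of counting error alone.

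The 13693 genes that reached an FPKM of 1 in any library were fitted as log2(FPKM + 1) with limma 3.58.1 (lmFit, eBayes with a trend) in R 4.3.3, with all 8 libraries in 5 groups. Calls needed a Benjamini-Hochberg adjusted p below 0.05 over all genes tested and a log2 difference of 1 or more in size. The fit was tested on simulated data. Between replicates, the variance was 1.42 (R1), 1.08 (16-6) and 1.29 (32) times that of counting. The methods call the replicates biological, and p-values measure the spread between these libraries only. The 16-6 libraries were kept as 2 samples.

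The members and the gene lists were chosen with earlier results of these data known. From each list up to 4 genes with the highest mean FPKM over the lines are named, with the 5 genes most like Dcn. Genes named beyond this rule (such as Epyc, Kera, Chpf2, Chst15 and B4galt4) lie beside a member or make up a count. Gene positions come from the deposited files (mm9, first base 1), and annotation is GENCODE M1 on the same build. Alternatives were other pseudocounts, filters and scalings, no fold minimum, no trend, left-out libraries and a replicate block. Figures used Python 3.11.15 and matplotlib 3.10.9.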

Additional observations from a re-analysis of the deposited data

Results flagged for a closer look

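Between 16-6 and 32, the iPSC lines with replicates, 5 of the 7 members other than Dcn passed the limma threshold, 2-fold minimum included. All 5 were lower in 32, against 9.22% of all genes. Prelp (-0.97, limma adjusted p = 0.000301) and Podn (-0.51, limma adjusted p = 0.00248) also differed but stayed under the 2-fold minimum. The log2 difference from R1 in 32 minus that in 16-6 was -4.52 for Bgn, -2.89 for Lum, -2.36 for Fmod, -2.11 for Aspn and -1.76 for Ogn, and each was lower in both libraries of 32 than in both libraries of 16-6. Bgn, Fmod, Aspn and Ogn were above R1 in 16-6 and below it in 32, whereas Lum was below R1 in both lines. Fmod entered the fit only through 16-6. The summed fibroblast markers differed in the same direction (2371 and 2394 in 16-6, 271.7 and 274.6 in 32), and their part was not tested.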

How the results depend on the processing

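No difference of a member changed direction under any alternative run, and of the 678 recomputed differences none lost its call. Counts of members other than Dcn moved by over 1.5 times under 3 of them. With pseudocount 0.1, members lower than in R1 numbered 2 in 16-6, 7 in 32 and 4 in S8. Without a fold minimum, 3 were lower in 16-6, 7 in 32, 5 in S8 (1 higher), 4 in T2 and 4 in the mean of the iPSC lines (1 higher). Podn, in the fit only through R1, was among those lower in 32 and S8 with pseudocount 0.1. Without a fold minimum Podn was among those lower in every comparison with R1. When each library had to reach an FPKM of 1, Bgn is the only one of the 7 left to test, so that 0 were lower and 1 higher in 16-6, 1 was lower in 32 and 1 in 32 than in 16-6, and 0 were lower in S8, in T2 and in the iPSC mean, where the main count was 2. Counts changed by 1 member, within 1.5 times, with quantile normalization (3 lower in S8 and in the iPSC mean), without R1 replicate 1 (4 lower in 32, 3 in S8), without R1 replicate 2 (4 higher in 16-6) and without 32 replicate 2 (4 lower in 32). Genes called among all tested numbered 974 in 16-6, 1338 in 32, 1437 in T2, 878 in the mean of the iPSC lines and 1412 in 32 against 16-6. They numbered 1690, 2258, 2198 and 1664 in the first 4 with pseudocount 0.1, and 565, 740, 940, 462 and 859 with the filter in every library. Without a fold minimum they numbered 7610, 8428, 7932, 8907 and 8265, and 9127 in S8 in place of 2283. Calls in the mean of the iPSC lines were 624 lower and 254 higher, and 493 and 347 with quantile normalization.

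Replicate numbers did not pair the samples, as their deviations correlated by -0.097, 0.001 and 0.028 between lines. With the replicate block 1 member was lower and 3 higher in 16-6 and 3 lower in 32, as without it. The share of Bgn in the family ranged from 86.6% in 32 to 91.0% in 16-6 among the iPSC lines with quantile normalization, and was 46.7% in R1. Counting the 16-6 libraries as 1 sample, a choice made after seeing the data, changed none of the member counts. Values of 32 for Lum, Fmod and Prelp rest on 4 to 8 fragments, so their fold differences are imprecise.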

Other observations

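Of 8 adipocyte markers 3 passed the filter on low values, Fabp4 only through R1, so Fabp4 is described by its values alone. Its mean was 9.89 in R1 and 0.745 in 16-6, and its FPKM was 0.173 in T2. It was listed at 0 in S8 and in both libraries of 32, the line from adipocyte progenitors. Of 6 keratinocyte markers only Krt10 passed the filter on low values, and it had no call in any line. Its mean was 1.63 in R1, 1.05 in 16-6, 1.47 in 32 and 1.29 in T2. The single library of S8, the line from epidermal cells, was at 1.95, a log2 difference from R1 of 0.17. Of 8 gastric markers Pgc and Ghrl passed it, at 3.39 and 2.57 in R1 and 1.46 and 0.606 in T2, the line from the stomach lining. Of 4 tested endothelial markers 1 was lower in 16-6 (Vwf) and 2 in T2 (Vwf and Tek). Of 10 pluripotency markers 3 were lower in 16-6 (Esrrb, Tbx3 and Zfp42), 1 in 32 (Zfp42), 4 in S8, where Utf1 was higher, and 4 in T2.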
